A study of Mus musculus with 18 samples.

Results

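The study placed Foxd3 and NFATc3 in mouse embryonic stem cells separately and together, and the comparison described here asks whether the joint transfection gave the sum of the separate effects. It used the 12 arrays of transfected cells among the 18 arrays of the series, as a design with both factors present or absent and 3 biological replicates in each of 4 groups. CGR8 cells, an established mouse embryonic stem cell line kept undifferentiated by the cytokine LIF, were cultured with LIF and 10% serum in GMEM and received plasmids by lipofection. The groups were empty vector, Foxd3, CA-NFATc3 (the prefix usually stands for constitutively active) and Foxd3 with CA-NFATc3, called both plasmids below. The vector group carried the transfection procedure that all 4 groups shared. Plasmid amounts, promoters and inserts, the share of cells transfected and the time from transfection to extraction are not given in the labels. The remaining 6 arrays held cells in which Foxd3 can be deleted (Foxd3fl/fl:Cre-ERT), 3 given DMSO alone and 3 given tamoxifen, which activates the Cre recombinase, for 2 days, and were used as separate samples.

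NFAT proteins are transcription factors held in the cytoplasm by phosphorylation. When cytosolic calcium rises, the phosphatase calcineurin removes the phosphates and NFAT enters the nucleus, where it binds a short GGAAA core, often beside another factor such as AP-1. In embryonic stem cells, calcineurin and NFAT signalling is known for its part in the switch from self-renewal to lineage commitment. Foxd3 is a forkhead transcription factor of pluripotent cells and the neural crest, known both to activate and to repress genes and to be needed for maintaining the early epiblast.

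The stem cell markers were strong in every array. The summed signal of Pou5f1, Nanog, Sox2, Zfp42 and Dppa5a, the 5 markers used, was 74815 to 84058 with vector, 71862 to 75360 with Foxd3, 73678 to 77254 with CA-NFATc3 and 67062 to 74266 with both plasmids. Median signals of the 12 arrays were 55.2 to 67.1, replicates correlated at r = 0.981 to 0.987 on the log2 scale, and the ratio of 3' to 5' signal, a measure of RNA integrity, was 2.21 to 2.42 for actin and 0.881 to 0.959 for Gapdh. The Foxd3 transcript went against its label. Its signals were 507, 419 and 404 with vector, 463, 408 and 483 with CA-NFATc3, 232, 244 and 236 where the label is Foxd3, and 277, 210 and 214 with both plasmids. Both groups labelled as receiving Foxd3 therefore lay below both others without overlap, and their differences were -0.81 (adjusted p = 0.0017, limma) and -0.87 (adjusted p = 0.00045) on the log2 scale. Nfatc3 signals were 1546 to 1606 with vector, 1681 to 1795 with CA-NFATc3 and 1795 to 1849 with both plasmids, a difference of CA-NFATc3 from vector of 0.13 (adjusted p = 0.35). A further Nfatc3 probe set had means of 253 with vector, 245 with Foxd3, 325 with CA-NFATc3 and 297 with both plasmids. The array position read for each gene relative to the plasmid's insert is not given, so none of these probe sets checks the labels of the plasmids. Every direction below holds for the arrays as labelled.

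For each gene the interaction term was computed on log2(signal + 32) as the difference of both plasmids from CA-NFATc3, minus the difference of Foxd3 from vector. It is 0 when the effects add on this scale, negative when the joint level lies below their sum and positive when it lies above. Calls required an adjusted p under 0.05 (limma, Benjamini and Hochberg over the genes tested). Of 11609 genes tested, 94 were called (0.81%), 84 with a negative term (0.724%) and 10 with a positive one (0.0861%). At an unadjusted p under 0.05 there were 985 genes (8.48%), 581 of them negative and 404 positive. The median term of all genes was 0.01, and 47.9% of all terms were negative. The called negative terms ran from -0.37 to -5.76 with a median of -1.60, 70 of them at -1 or below. The called positive terms ran from 0.51 to 2.53 with a median of 0.68.

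**Figure D1:**
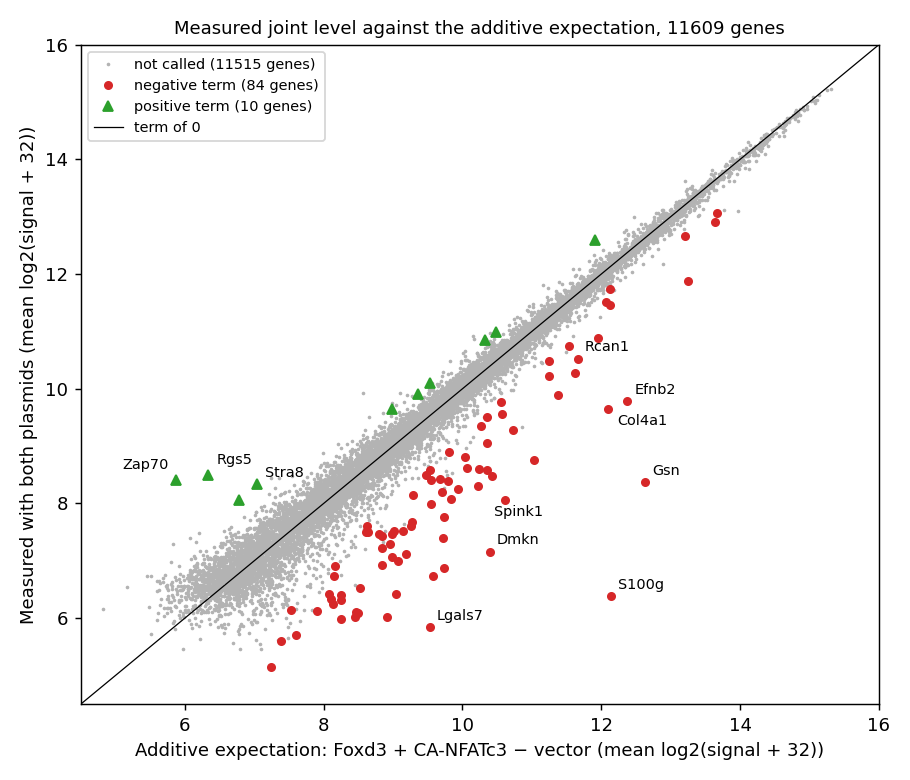
Mean log2(signal + 32) measured with both plasmids (vertical) against the additive expectation from the other 3 groups (horizontal), 1 point per gene for 11609 genes; the line marks a term of 0. The 84 red points (negative term) lie below the line, with S100g and Gsn farthest from it, and the 10 green triangles (positive term) lie above.

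Blocking on the replicate number, 245 genes were called (2.11%), 184 negative and 61 positive, and all 94 genes were among them. One array stood apart within its group. CA-NFATc3 replicate 3 was the highest of its 3 replicates for 74 of the 84 negative genes, against 31.9% of all genes and 73.5% of the 536 genes called higher with CA-NFATc3 than with vector. Without it 56 genes were called, 51 negative and 5 positive, and all 56 were among the 94. Without Foxd3 replicate 3, 60 were called. The median term of the 84 genes was -1.29, -1.40 and -1.88 within replicate numbers 1, 2 and 3, and all 94 called genes had the same sign within all 3 numbers. These arrays also gave the calls, so the signs are a description and no further support.

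Most negative genes had their highest level with CA-NFATc3. In 81 of 84 the CA-NFATc3 group had the highest mean, and in 75 all 3 CA-NFATc3 arrays lay above the other 9, a pattern that 4.81% of all genes tested showed. In 76 of the 84 all 3 CA-NFATc3 arrays lay above all 3 with both plasmids, which 10.8% of all genes showed. The lowest mean was that of vector in 53 genes, of Foxd3 in 20 and of both plasmids in 11. These counts describe the levels behind the term and are not a second test of it. A gene was tested if 3 arrays reached a minimum signal, which the arrays of a single group can supply. In 19 of the 84 the means of vector, Foxd3 and both plasmids all lay at or under that signal. For those genes a highest CA-NFATc3 level is partly built in by the filter, and they remain in the counts above. List members tested only through their CA-NFATc3 arrays likewise remain in the list counts and medians below.

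The separate differences are set side by side here, and since they share arrays they are no independent evidence of each other. Against vector, CA-NFATc3 alone changed 680 genes (5.86%), 536 higher and 144 lower, of which 213 changed at least 2-fold. Without CA-NFATc3 replicate 3 that count was 388. Against Foxd3, the joint transfection changed 38 genes (0.327%), 37 higher and 1 lower. Leaving out 1 array moved that count to between 22 and 44, with 23 without Foxd3 replicate 1, 22 without Foxd3 replicate 2, 25 without both plasmids replicate 2 and 24 without both plasmids replicate 3. The CA-NFATc3 plasmid was thus followed by 680 called genes where Foxd3 was not co-transfected and by 38 where it was, while the test of the difference itself called the 94 genes given above. The median standard error was 0.12 in both comparisons, which had 3 arrays a group.

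In the other direction of the design, Foxd3 alone changed 334 genes against vector (2.88%), 198 higher and 136 lower. That count was 187 without vector replicate 3 and 158 without Foxd3 replicate 3. Adding Foxd3 to CA-NFATc3 changed 711 genes (6.12%), 283 higher and 428 lower, and 416 genes without CA-NFATc3 replicate 3. Blocking on the replicate number gave 1104 genes for CA-NFATc3 against vector, 96 for both plasmids against Foxd3, 783 for Foxd3 against vector and 1258 for both plasmids against CA-NFATc3. Both plasmids against vector changed 559 genes (4.82%). Averaged over the other factor, Foxd3 changed 1045 genes (9%), 487 up and 558 down, and CA-NFATc3 changed 565 (4.87%), 473 up and 92 down. The interaction held 10.6% of the sum of squares over all genes, against 22.8% for the average Foxd3 effect, 21.3% for the average CA-NFATc3 effect, 17.7% for the replicate number and 27.6% for the rest.

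All 84 genes with a negative term were called higher with CA-NFATc3 than with vector, by a median of 1.76 on the log2 scale. Of all 11609 genes tested 536 were. Against Foxd3, the joint transfection was called higher for 7 of the 84 (37 of all genes tested), and the median difference was 0.17. Of the rise with CA-NFATc3, the share still present with both plasmids, measured from vector on the log2 scale, had a median of 19.97% over the 81 genes with CA-NFATc3 highest (quartiles 6.43% and 34.9%, range -51.8% to 98.5%). It was under 25% in 50 genes and over 50% in 12. Being measured from vector, the share also takes in any change with Foxd3 alone. A low share is partly built in, because the same arrays selected these genes for a negative term and a highest CA-NFATc3 mean. The share is not given for the other genes called higher with CA-NFATc3. Foxd3 alone was called higher than vector in 12 of the 84 and lower in 0, against 198 and 136 of all genes tested. With both plasmids 74 were called lower than with CA-NFATc3 and 1 higher, against 428 and 283 of all. These differences share arrays with the term that selected the genes, so their directions are no further support.

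**Figure D2:**
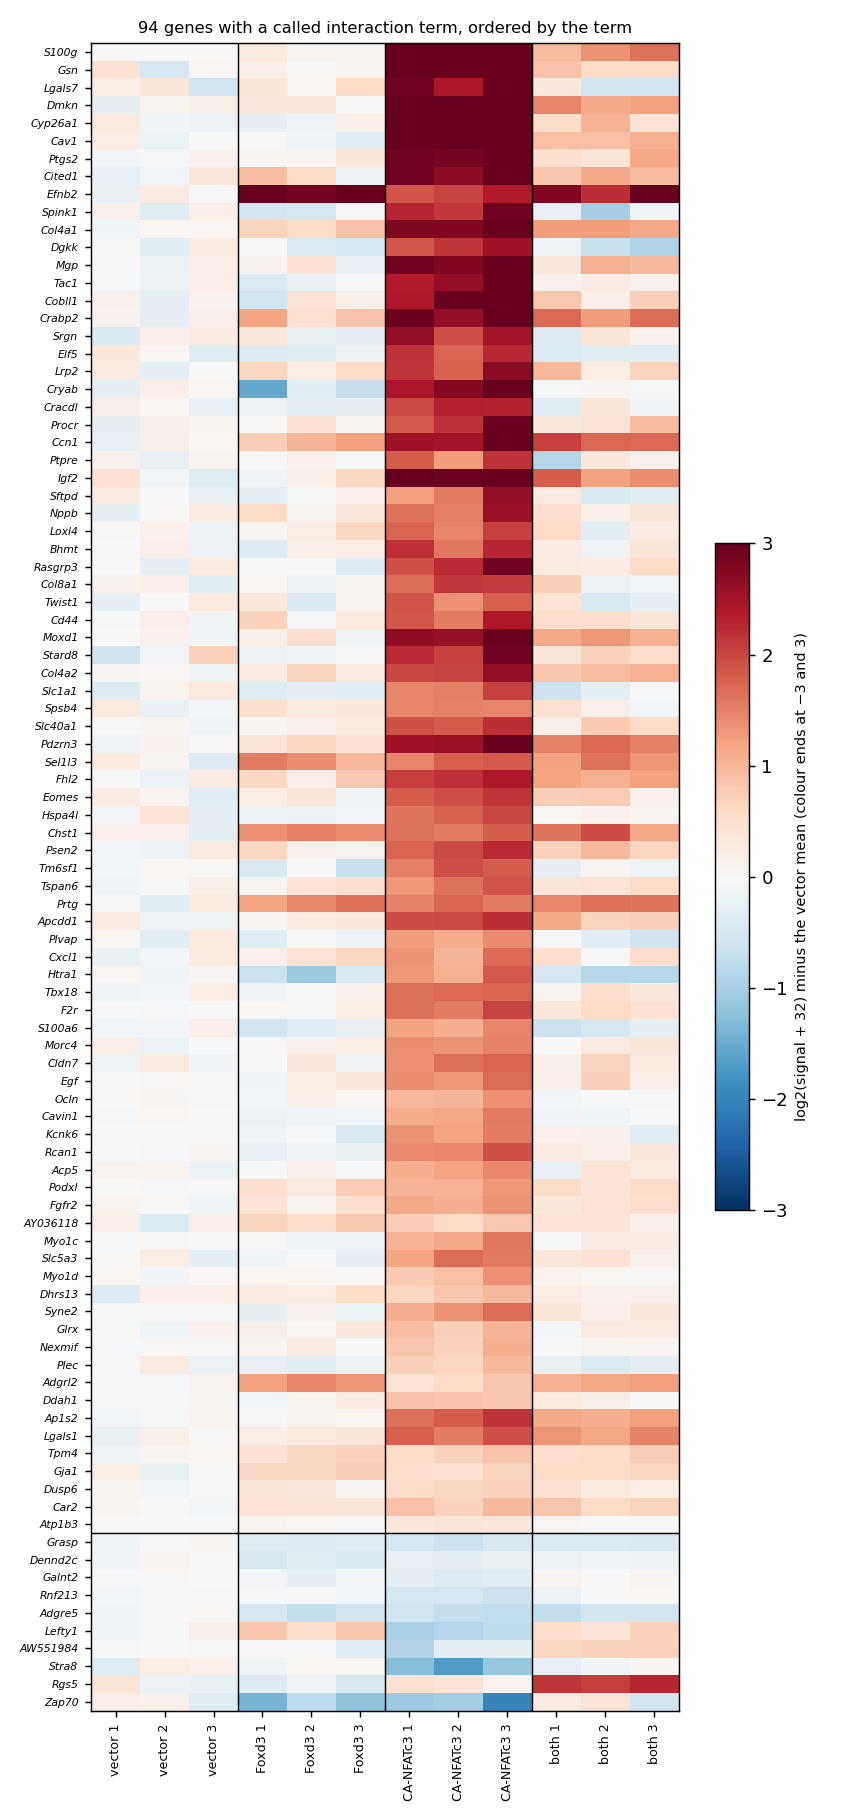
The 94 called genes (rows, most negative term at the top) in the 12 arrays (columns, grouped by transfection), as log2(signal + 32) minus the vector mean, red for higher and blue for lower. The CA-NFATc3 columns are the reddest in 81 of the 84 upper rows, and Efnb2 is an exception that is high with Foxd3 and with both plasmids as well; the 10 rows under the line have positive terms.

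Promoter sequence is shown for 3 genes on which the negative pattern rests, S100g and Gsn for their size and Rcan1 as the classic NFAT target, 250 bases before each start on the coding strand (RefSeq, GRCm38.p6). Capitals mark matches, on either strand, to an NFAT core (TGGAAA), an AP-1 site (TGANTCA) or a forkhead core (TGTTTA). Rcan1 has an outer start and an inner start, and the inner one is known as the start that responds to calcineurin and NFAT.
S100g, chrX:162964600-162964849, minus strand: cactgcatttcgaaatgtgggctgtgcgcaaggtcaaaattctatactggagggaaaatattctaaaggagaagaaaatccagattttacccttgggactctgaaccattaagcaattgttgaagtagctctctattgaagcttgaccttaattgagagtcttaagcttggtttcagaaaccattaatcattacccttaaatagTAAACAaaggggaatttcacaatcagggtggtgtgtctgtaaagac
Gsn, most downstream start, chr2:35282130-35282379, plus strand: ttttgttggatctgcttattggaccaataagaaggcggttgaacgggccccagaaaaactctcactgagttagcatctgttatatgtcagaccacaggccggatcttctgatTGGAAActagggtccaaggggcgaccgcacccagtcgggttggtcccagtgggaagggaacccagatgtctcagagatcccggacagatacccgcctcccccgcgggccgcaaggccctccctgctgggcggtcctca
Rcan1, outer start, chr16:92466170-92466419, minus strand: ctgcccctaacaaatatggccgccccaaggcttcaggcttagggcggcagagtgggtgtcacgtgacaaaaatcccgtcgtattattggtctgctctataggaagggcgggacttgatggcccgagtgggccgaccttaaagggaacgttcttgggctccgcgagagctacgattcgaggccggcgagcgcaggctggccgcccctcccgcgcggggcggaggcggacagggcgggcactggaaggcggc
Rcan1, inner start, chr16:92400079-92400328, minus strand: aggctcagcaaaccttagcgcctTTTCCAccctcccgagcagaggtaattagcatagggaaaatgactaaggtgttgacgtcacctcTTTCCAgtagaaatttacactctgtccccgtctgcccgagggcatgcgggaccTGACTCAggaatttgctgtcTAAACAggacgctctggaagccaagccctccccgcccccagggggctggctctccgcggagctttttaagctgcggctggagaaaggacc
The inner Rcan1 window held 2 NFAT cores, an AP-1 site and a forkhead core, and the outer window held no match. The Gsn window shown held 1 NFAT core, and its 2 other windows and that of Ptgs2 held no match. Of the 84 negative genes 68 had a promoter in the table. An NFAT core lay in at least 1 window of 13 of them (19.1%), against 16.8% of the tested genes and 20.9% of all genes in the table. An AP-1 site lay in at least 1 window of 8 (11.8%), against 5.08% of tested genes and 7.82% of all, and a forkhead core in 5 (7.35%), against 9.19% and 13.5%. Counted over single windows, the NFAT core was in 13.5% of the 96 of the negative genes and in 14.2% of the 12062 of the tested genes. A match describes these letters in these windows and is not evidence of a bound site.

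S100g, which encodes the calcium-binding protein calbindin-D9k, had the most negative term. Its signals were 1.566, 1.498 and 1.572 with vector and 9.12, 4.09 and 3.72 with Foxd3. They were 3267, 3876 and 5046 with CA-NFATc3 and 33.3, 53.6 and 71.3 with both plasmids. Only the CA-NFATc3 arrays stood well above the testing level of 65.8, the median of all deposited values, and no other array but 1 with both plasmids reached it. With dim arrays set to that level, the CA-NFATc3 mean was at least 60.8-fold above vector and at least 59.2-fold above both plasmids. The interaction term was -5.76 ± 0.27 (SE, 3 arrays a group, adjusted p = 1.23e-08).

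Gsn encodes gelsolin, which severs and caps actin filaments. Its signals were 258, 118 and 187 with vector and 208, 178 and 193 with Foxd3. They were 4771, 6257 and 7076 with CA-NFATc3 and 352, 276 and 278 with both plasmids. The CA-NFATc3 arrays lay far above the other 9, and the joint arrays lay above those of vector and Foxd3. On the signal scale CA-NFATc3 was 33.4-fold above vector and 19.8-fold above both plasmids, with a term of -4.26 ± 0.27 (SE, adjusted p = 5.05e-07). The 3 other Gsn probe sets gave terms of -3.87, -3.64 and -3.28, all called. Tpm4, a tropomyosin that winds along actin filaments, was the other called member of 16 tested actin and smooth muscle genes. Its signals were 1629 to 1937 with vector, 2475 to 2938 with Foxd3, 2678 to 3312 with CA-NFATc3 and 2646 to 3039 with both plasmids. Here the 3 groups given Foxd3, CA-NFATc3 or both overlapped one another and lay above vector, and the term of -0.68 ± 0.14 (adjusted p = 0.0253) stands beside separate rises of 0.58 with Foxd3 and 0.70 with CA-NFATc3. That call was lost without any 1 of vector replicates 1 and 3, Foxd3 replicates 2 and 3, CA-NFATc3 replicate 3 or both plasmids replicates 1 and 2 (highest adjusted p = 0.0946).

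**Figure D3:**
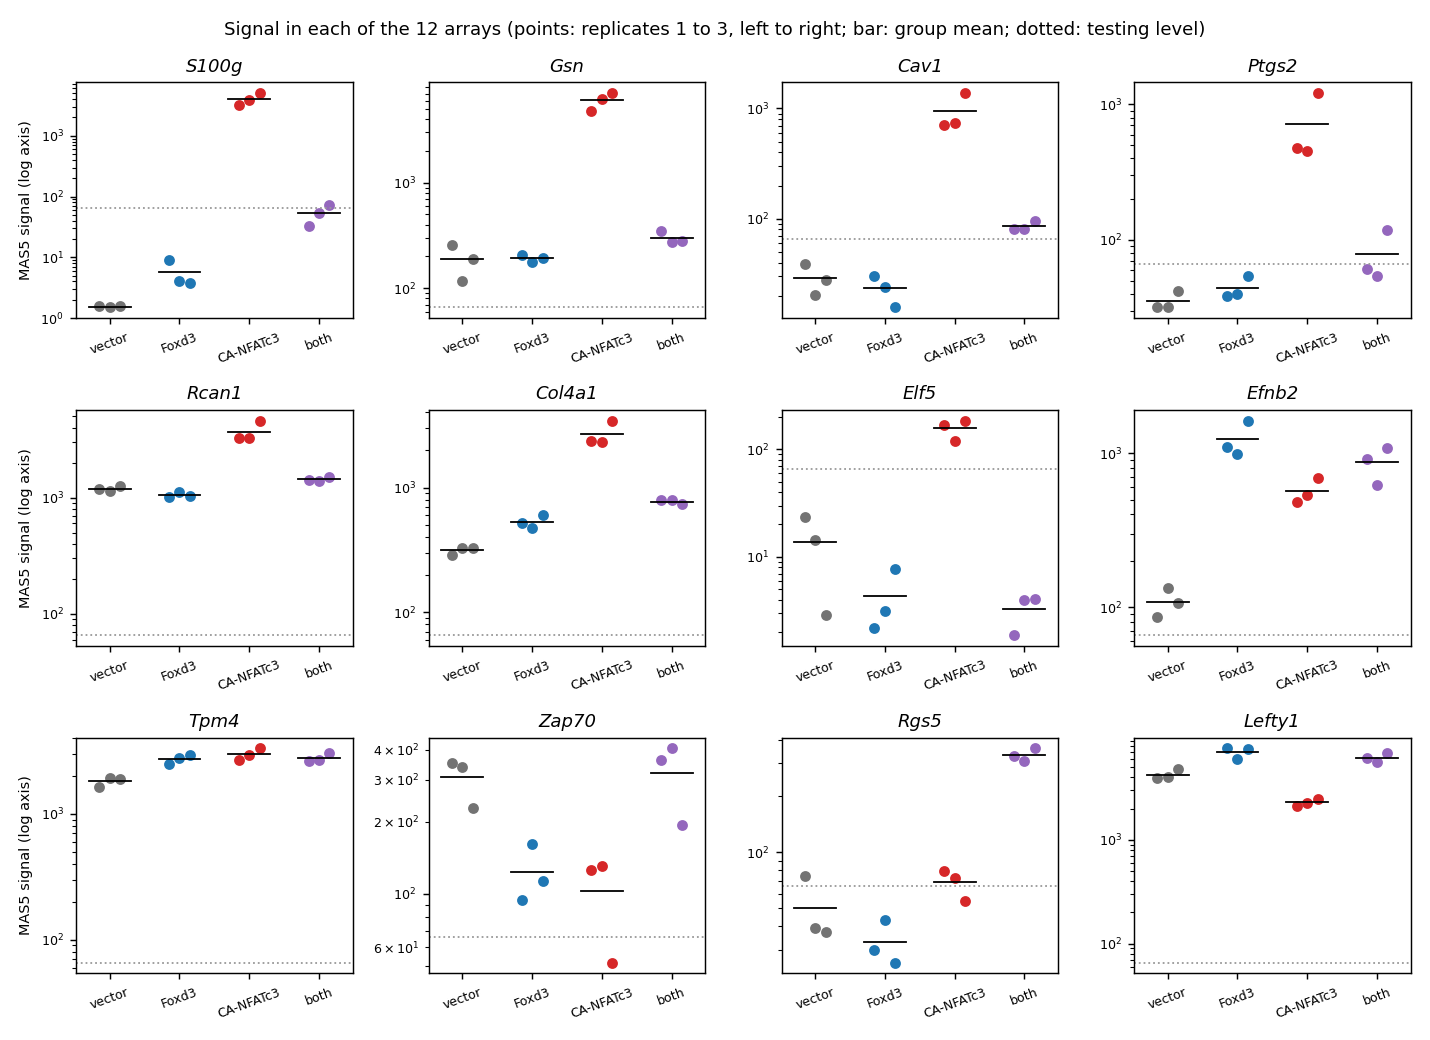
MAS5 signal (log axis, a different range in each panel) of 12 genes in the 12 arrays, with replicates 1 to 3 from left to right in each group, a bar at the group mean and a dotted line at the testing level of 65.8. In the first 7 panels CA-NFATc3 lies above the other 9 arrays; in Efnb2 and Tpm4 Foxd3 alone is also above vector; Zap70, Rgs5 and Lefty1 have positive terms.

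Rcan1, an inhibitor of calcineurin and a direct NFAT target, was the only called gene among 19 tested calcineurin and NFAT components and targets. Its signals were 1192, 1137 and 1258 with vector and 1006, 1112 and 1025 with Foxd3. They were 3235, 3274 and 4597 with CA-NFATc3 and 1432, 1384 and 1508 with both plasmids. The 4 groups ordered without overlap between CA-NFATc3, both plasmids and the others, and 16.6% of the log2 rise with CA-NFATc3 remained in the joint arrays. The term was -1.14 ± 0.16 (SE, adjusted p = 0.0013), and a further Rcan1 probe set gave -1.27 (adjusted p = 0.162). The NFAT genes themselves had terms of -0.42 (Nfatc1, adjusted p = 0.897), -0.16 (Nfatc2, 0.97), -0.05 (Nfatc3, 0.952) and 0.26 (Nfatc4, 0.672). The term of Foxd3 was -0.06 (adjusted p = 0.983) and that of Src, a tyrosine kinase, was -0.04 (0.991). With the replicate block the calcineurin subunit Ppp3ca was called as well, with a positive term (0.50, adjusted p = 0.463, block 0.0342). Further Ppp3ca probe sets gave 0.12 and 0.19 (adjusted p = 0.971 and 0.895, limma without the block). The list's median term was -0.04.

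Ptgs2, the inducible cyclooxygenase and a known NFAT target in other cells, was the only called member of 18 tested immediate early and AP-1 genes. Its signals were 31.7, 31.9 and 41.8 with vector and 38.4, 39.7 and 54.3 with Foxd3. They were 474, 456 and 1215 with CA-NFATc3 and 60.9, 54.5 and 119 with both plasmids. The CA-NFATc3 arrays did not overlap the rest, CA-NFATc3 replicate 3 was the highest, and the term was -2.84 ± 0.42 (SE, adjusted p = 0.00272) and -2.40 without that array (adjusted p = 0.00275). Egr1 and Egr2, zinc finger factors induced by growth signals, had terms of -1.53 (adjusted p = 0.48) and -1.71 (0.0924) that were called with the replicate block (0.000645 and 0.021), as was that of the ERK phosphatase Dusp4 (-0.93, adjusted p = 0.248, block 0.0389). The list thus had 4 negative calls with the block. A further probe set of Egr2 was called without the block (-2.05, adjusted p = 0.0238), as was one of Egr3 (-1.71, adjusted p = 0.0272), whose brightest probe set was too dim to be tested. In the order vector, Foxd3, CA-NFATc3, both plasmids, their means were 8.09, 17.3, 122 and 13.9 (Egr2) and 6.95, 6.48, 131 and 17.2 (Egr3). Both were tested only through their CA-NFATc3 arrays, so these calls are no further support. The list's median term was -0.26.

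Genes of caveolae, the cholesterol-rich pits of the plasma membrane, and of the YAP pathway gave 3 called negative terms among 13 tested and 0 positive, and 6 negative with the block. Cav1, the main coat protein of caveolae, had signals of 38.6, 20.4 and 28.0 with vector and 30.2, 24.2 and 15.7 with Foxd3. They were 715, 742 and 1380 with CA-NFATc3 and 81.6, 81.5 and 95.2 with both plasmids. All joint arrays lay above all vector and Foxd3 arrays and far below CA-NFATc3. CA-NFATc3 was at least 13.7-fold above vector and 10.5-fold above both plasmids, and the term was -2.85 ± 0.32 (adjusted p = 0.000326). Its partner Cavin1 had mean signals of 442, 401, 1125 and 419 in the order vector, Foxd3, CA-NFATc3, both plasmids, and a term of -1.22 ± 0.16 (adjusted p = 0.00104). Ccn1, a secreted matrix-associated YAP target, had means of 69.9, 171, 678 and 328 and a term of -1.94 ± 0.28 (adjusted p = 0.00202). Measured from vector, 65.9% of its log2 rise was present with both plasmids. Its mean with Foxd3 alone also lay above vector, so that share does not measure the CA-NFATc3 rise alone. Cav2, the second caveolin, had a term of -1.57 that was not called (adjusted p = 0.0593) except with the block (0.0186). The same held for Amotl2 and Ccn2, an inhibitor and a target of YAP, with terms of -0.997 (adjusted p = 0.18, block 0.00207) and -0.63 (0.749, block 0.0384).

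Annexins, S100 proteins and galectins, which bind calcium, membranes or sugars, had 3 called negative terms and 0 positive among 16 tested. Beside S100g these were S100a6 and Lgals1. The block added Anxa1, an annexin (-0.65, adjusted p = 0.619, block 0.021). S100a6 means were 1696 ± 185 (SD) with vector, 1305 ± 160 with Foxd3, 4084 ± 556 with CA-NFATc3 and 1214 ± 171 with both plasmids, so none of the rise remained, and the term was -1.35 ± 0.17 (SE, adjusted p = 0.00099). Lgals1 kept most of it, with means of 3039, 3725, 10355 and 7664 in the order vector, Foxd3, CA-NFATc3, both plasmids and a term of -0.73 (adjusted p = 0.0448). Its call was lost without any 1 of 9 arrays, all but vector replicate 2, CA-NFATc3 replicate 2 and both plasmids replicate 3 (highest adjusted p = 0.166). Lgals7, an epithelial galectin named for the size of its term alone, had CA-NFATc3 signals of 490, 339 and 984 against 13.9 to 72.0 in the other 9 arrays. It was at least 8.31-fold higher with CA-NFATc3 than with both plasmids, and its term was -3.69 ± 0.49 (adjusted p = 0.00119). The term was -2.73 and -2.69 within replicate numbers 1 and 2 and -5.64 within number 3.

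Basement membrane genes had 2 called negative terms and 0 positive among 16 tested. Col4a1 and Col4a2, the paired chains of collagen IV that lie side by side in the genome, were the 2. Col4a1 signals were 289, 328 and 326 with vector, 518, 477 and 605 with Foxd3, 2358, 2340 and 3440 with CA-NFATc3 and 788, 788 and 732 with both plasmids. The 4 groups did not overlap, and the joint level exceeded that with Foxd3 and lay below that with CA-NFATc3. The term was -2.46 ± 0.19 (adjusted p = 3.48e-06), and 40.9% of the log2 rise over vector was present with both plasmids. That share takes in the higher level with Foxd3 alone. Col4a2 means were 128, 180, 731 and 273, with a term of -1.69 ± 0.24 (adjusted p = 0.00144). The laminins, nidogens and collagen-processing enzymes of the list were not called, except the nidogen Nid2 with the block (-0.37, adjusted p = 0.13, block 0.0455), and the list's median term was -0.08.

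Trophectoderm genes, which mark the outer lineage of the blastocyst, had 4 called negative terms and 0 positive among 16 tested, with a median of -0.56. Of the 4 called genes, Elf5 and Cited1 were tested only through their CA-NFATc3 arrays. The list's count and median are therefore partly built in by the filter. Elf5, a transcription factor of trophoblast stem cells, had signals of 169, 118 and 184 with CA-NFATc3 and 1.89 to 23.7 in the other 9 arrays, and a term of -2.10 ± 0.35 (adjusted p = 0.00637). Eomes, a T-box factor of trophoblast and mesendoderm, had signals of 78.1 to 135 with vector, 99.0 to 149 with Foxd3, 467 to 587 with CA-NFATc3 and 124 to 205 with both plasmids, and a term of -1.59 ± 0.28 (adjusted p = 0.0086). Only the CA-NFATc3 arrays of either gene were apart from the rest. Cited1, a transcriptional coactivator, had CA-NFATc3 signals of 298, 248 and 628 against 5.14 to 63.8 elsewhere and a term of -2.62 ± 0.45 (adjusted p = 0.00784). The fourth, Fgfr2, a receptor for FGFs, was named after its values were seen; its term was -1.11 (adjusted p = 0.0177). That call was lost without vector replicate 3, Foxd3 replicate 3 or CA-NFATc3 replicate 3 (highest adjusted p = 0.0714) and with the mean of all probe sets, and a further probe set gave -0.09 (adjusted p = 0.985). With the block the list had 5 called negative terms, adding the inhibitory factor Id2 (-0.71, adjusted p = 0.518, block 0.0333). Further Id2 probe sets gave -0.86 and -0.03 (adjusted p = 0.708 and 0.996, limma without the block). Cdx2, the lineage's defining factor, was under the testing level in all 12 arrays (1.84 to 42.7), as were the group means of Gata3 and Tpbpa. The summed signal of all 21 markers was 6107 to 7079 with vector, 7451 to 9286 with Foxd3, 8882 to 10542 with CA-NFATc3 and 7535 to 9697 with both plasmids. Id2 and Tfap2c gave most of it, so the sum does not stand for the set. In the order vector, Foxd3, CA-NFATc3, both plasmids, Id2 means were 1698.8, 4385.5, 3032.5 and 4698.9. Those of Tfap2c were 2848.7, 2171.5, 3091.9 and 2193.6.

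Primitive endoderm genes, which mark the yolk sac lineage, had 2 called negative terms and 0 positive among 12 tested, with a median of -0.58. Of the 19 markers on the array, 13 with vector, 13 with Foxd3, 5 with CA-NFATc3 and 12 with both plasmids had means under the testing level. Members such as Srgn were tested only through their CA-NFATc3 arrays, so the negative median is partly built in by the filter. Srgn encodes the granule proteoglycan serglycin, and its signals were 354, 202 and 315 with CA-NFATc3 against 13.4 to 47.5 in the other 9 arrays (term -2.26 ± 0.39, adjusted p = 0.00748). Lrp2 encodes megalin, an endocytic receptor, and its means were 59.0, 95.5, 399 and 111 in the order vector, Foxd3, CA-NFATc3, both plasmids (term -2.07 ± 0.35, adjusted p = 0.00646). Gata6, a defining factor, had means of 66.8, 60.4, 112 and 64.8 in the same order and a term of -0.50 (adjusted p = 0.749). Afp, Ttr and Foxa2, products or factors of the differentiated layer, had means under the testing level in all 4 groups. The summed signal of the 19 markers on the array was 4201 to 5306 with vector, 3542 to 4395 with Foxd3, 6235 to 6733 with CA-NFATc3 and 3502 to 4477 with both plasmids. The part of a changed cell mixture in the genes of these lineages was not tested, and in whole cultures more cells of a type and more RNA per cell cannot be told apart.

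Epithelial junction genes had 2 called negative terms and 0 positive among 18 tested keratins and junction components. Cldn7 and Ocln, both proteins of tight junctions, had means of 383, 407, 1209 and 509 and of 326, 342, 758 and 313 in the order vector, Foxd3, CA-NFATc3, both plasmids. Their terms were -1.29 ± 0.22 (adjusted p = 0.0086) and -1.24 ± 0.17 (adjusted p = 0.00119). With the block 4 terms of the list were called negative, adding the tight junction protein Cldn6 (-1.12, adjusted p = 0.0732, block 0.0393) and the epithelial splicing factor Esrp1 (-0.52, adjusted p = 0.0811, block 0.0333). The cadherin Cdh1, which holds stem cell colonies together, had a term of -0.09 (adjusted p = 0.896) at means of 8328 to 9065. Twist1, a helix-loop-helix factor of mesenchyme, was the only called gene of 11 tested fibroblast genes, with means of 44.6, 44.6, 213 and 40.1 and a term of -1.79 ± 0.38 (adjusted p = 0.0359). Its call was lost without any 1 of 8 arrays, all but vector replicate 3, Foxd3 replicate 2, CA-NFATc3 replicate 2 and both plasmids replicate 1 (highest adjusted p = 0.126). The fibroblast markers Col1a1, Dcn and Postn were under the testing level in all 4 group means, but some other collagens were not. In the order vector, Foxd3, CA-NFATc3, both plasmids, Col1a2 means were 27.2, 71.7, 51.6 and 319.5. Those of Col3a1 were 18.1, 22.4, 220.7 and 123.2, and those of Col5a2 were 31.3, 45.2, 356.2 and 378.4. In the same order 13, 11, 9 and 9 of the 19 markers had means under the testing level. The summed signal of the 19 fibroblast markers on the array was 15756 to 16030 with vector, 16959 to 18119 with Foxd3, 16808 to 18630 with CA-NFATc3 and 19271 to 21131 with both plasmids. Vim and Fn1 gave most of it, so the sum does not stand for the set. In the order vector, Foxd3, CA-NFATc3, both plasmids, Vim means were 8804.0, 10309.9, 8118.4 and 11193.9. Those of Fn1 were 6005.7, 6145.7, 7522.1 and 6837.8.

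Retinoic acid genes moved in both directions, with 2 called negative terms and 1 positive among 9 tested. Cyp26a1, the enzyme that degrades retinoic acid, had signals of 483, 372 and 595 with CA-NFATc3 against 1.74 to 51.0 in the other 9 arrays, a difference from both plasmids of at least 7.21-fold, and a term of -2.90 ± 0.34 (adjusted p = 0.000509). Crabp2, which carries retinoic acid to its nuclear receptors, had means of 119, 240, 1167 and 407 in the order vector, Foxd3, CA-NFATc3, both plasmids and a term of -2.27 ± 0.29 (adjusted p = 0.00099). Stra8, a retinoic acid-induced gene needed for the entry into meiosis, had the opposite profile. Its signals were 236, 370 and 351 with vector, 276, 328 and 330 with Foxd3, 110, 74.6 and 124 with CA-NFATc3 and 259, 286 and 333 with both plasmids. It fell with CA-NFATc3 alone, and the joint arrays overlapped those of vector and Foxd3. The term was 1.29 ± 0.25 (adjusted p = 0.0192), and the call was lost without vector replicate 2 or 3, Foxd3 replicate 1 or both plasmids replicate 3 (highest adjusted p = 0.0694). The list's median term was 0.33.

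Efnb2, the ligand ephrin-B2, differed from the common profile because it rose with each plasmid alone. Its signals were 86.5, 132 and 106 with vector, 1099, 986 and 1630 with Foxd3, 479, 536 and 690 with CA-NFATc3 and 920, 619 and 1087 with both plasmids. Foxd3 alone was 11.3-fold and CA-NFATc3 alone 5.27-fold above vector on the signal scale, and the joint arrays overlapped both. The term was -2.58 ± 0.29 (adjusted p = 0.000378), and a further probe set gave -1.68 (adjusted p = 0.039). It was the only called gene of 13 tested ephrins and Eph receptors. Dusp6, a phosphatase that restrains ERK, was the only called gene of 10 tested FGF and ERK feedback genes, with means of 2290, 2752, 3550 and 2895 in the order vector, Foxd3, CA-NFATc3, both plasmids and a term of -0.55 (adjusted p = 0.0485). That call was lost without any 1 of 9 arrays, all but vector replicate 1, Foxd3 replicate 3 and both plasmids replicate 1 (highest adjusted p = 0.171).

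Among the remaining genes of the most negative terms, 5 were highest with CA-NFATc3 alone. For Dmkn the joint arrays also lay above those of vector and Foxd3. Dmkn encodes dermokine, a secreted protein of the epidermis, and its CA-NFATc3 signals of 941, 973 and 1545 stood against 98.4 to 131 with both plasmids and 17.2 to 43.3 in the other 6 arrays (term -3.23 ± 0.28, adjusted p = 2.04e-05). Spink1, a trypsin inhibitor, had 1582 to 2778 with CA-NFATc3 and 152 to 396 in the other 9 arrays (term -2.55 ± 0.35, adjusted p = 0.00123). Mgp, an inhibitor of calcification in the matrix, had 239 to 437 against 1.49 to 50.3 (term -2.40 ± 0.39, adjusted p = 0.00497). These 3 secreted proteins had no overlap between CA-NFATc3 and any other group. The same held for Tac1, the precursor of substance P, at 285 to 536 against 14.01 to 40.6 (term -2.36 ± 0.31, adjusted p = 0.00119), and for Dgkk, a diacylglycerol kinase, at 318 to 514 against 19.1 to 83.9 (term -2.44 ± 0.35, adjusted p = 0.00154).

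**Figure D4:**
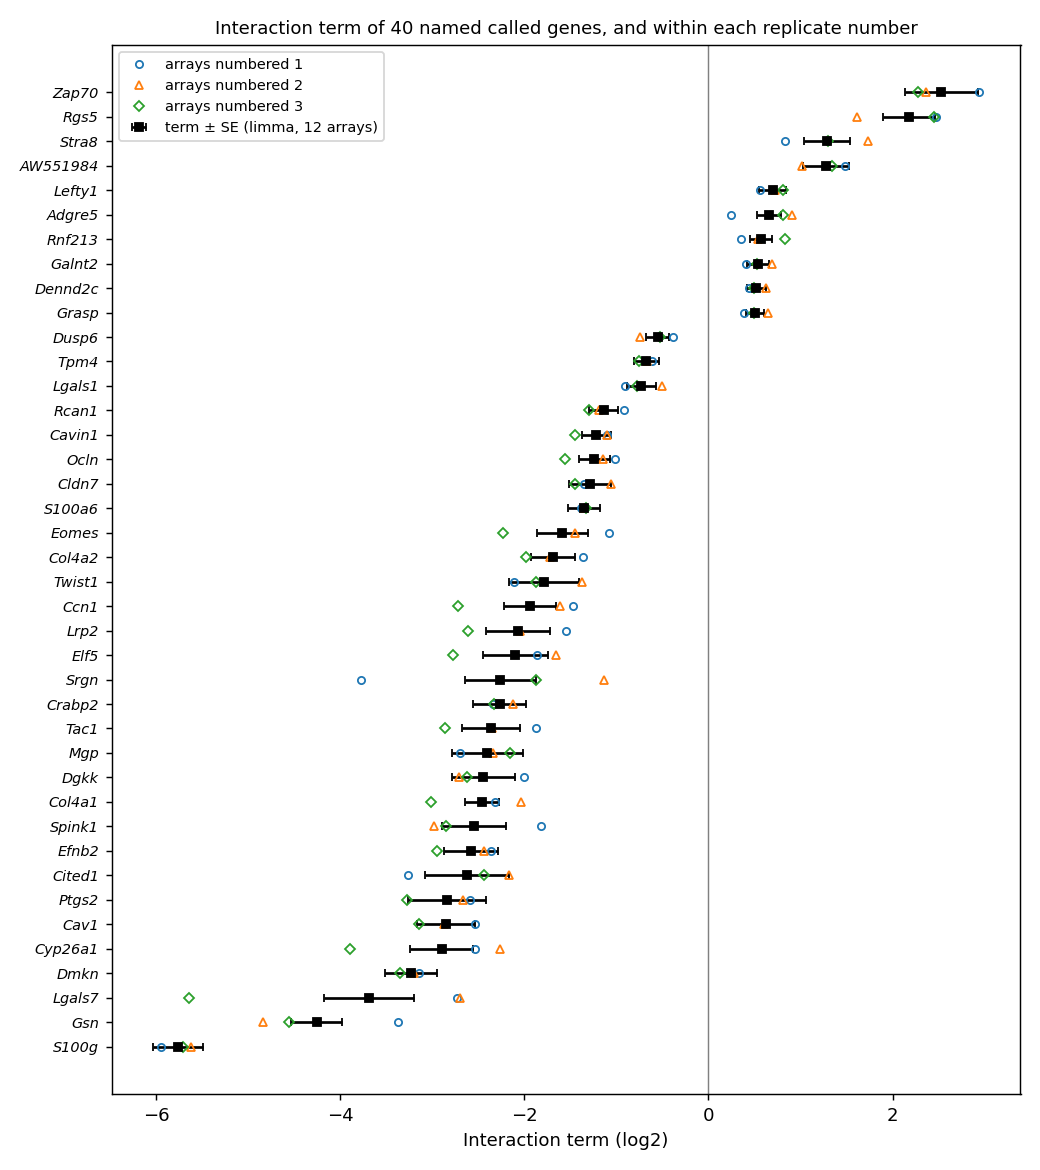
Interaction term of the 40 named called genes (black squares, term with its limma standard error, 3 arrays a group) and the same term computed within each replicate number (open symbols), on the log2 scale. All symbols of a gene lie on 1 side of 0, and the spread between numbers is widest for Lgals7 (-2.69 to -5.64) and Srgn (-1.14 to -3.78).

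The other 54 called genes all had negative terms, and those named here were picked after their values were seen. Igf2, an insulin-like growth factor, had means of 85.6, 105, 1008 and 291 in the order vector, Foxd3, CA-NFATc3, both plasmids (term -1.92). Cd44, the hyaluronan receptor, had 26.7, 42.0, 198 and 48.9 (term -1.77). Cryab, a small heat shock protein, had 98.5, 43.6, 992 and 96.0 (term -2.07). All 3 had their highest mean with CA-NFATc3. Their adjusted p were 0.00748 for Igf2, 0.0195 for Cd44 and 0.0206 for Cryab. The call of Cd44 was lost without Foxd3 replicate 1 or replicate 3 of any group (highest adjusted p = 0.073), and that of Cryab without vector replicate 1, Foxd3 replicate 2 or replicate 3 of any group (highest 0.0734). F2r, the thrombin receptor, was among the strongest transcripts of the 54, at 2732, 2894, 9297 and 3758 (term -1.36, adjusted p = 0.000326). Gja1, which encodes the gap junction protein connexin 43, instead had means of 5652, 8895, 8237 and 8529 (term -0.61, adjusted p = 0.0305). With Efnb2 and the adhesion receptor Adgrl2 (means 363, 961, 574 and 841) it made up the 3 negative genes whose highest mean was that of Foxd3. The term of Adgrl2 was -0.79 (adjusted p = 0.0259). The call of Gja1 was lost without any 1 of 9 arrays, all but vector replicate 1 and CA-NFATc3 replicates 1 and 2 (highest adjusted p = 0.112). That of Adgrl2 was lost without replicate 1 or 2 of vector or of both plasmids, Foxd3 replicate 2 or 3 or CA-NFATc3 replicate 3 (highest 0.0811). Of Efnb2, Gja1 and Adgrl2, the latter pair also lost the call with the mean of all probe sets.

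Among the 10 genes with a positive term, CA-NFATc3 alone was called lower than vector in 8 and had the lowest mean in 8. Of all 11609 genes tested these held for 144 and 3153. In 5 all 3 CA-NFATc3 arrays lay below the other 9, a pattern of 1.91% of all genes. In 7 the joint transfection was called higher than CA-NFATc3 (283 of all genes), and in 1 (Rgs5) higher than Foxd3 (37 of all). These differences share arrays with the term. Rgs5 encodes a regulator that switches off G protein signalling. Its signals were 74.3, 39.2 and 37.6 with vector, 29.9, 43.3 and 25.6 with Foxd3, 79.6, 73.0 and 54.9 with CA-NFATc3 and 328, 307 and 360 with both plasmids. Only the joint arrays were high, at least 4.83-fold above vector and 4.56-fold above CA-NFATc3, and the term was 2.17 ± 0.28 (adjusted p = 0.00104). All 3 joint arrays above the other 9 was a pattern that 0.973% of all genes showed.

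Zap70, a tyrosine kinase known from T cell receptor signalling, had the largest positive term. Its signals were 354, 339 and 228 with vector, 94.1, 162 and 113 with Foxd3, 126, 131 and 51.7 with CA-NFATc3 and 364, 406 and 194 with both plasmids. Either plasmid alone gave arrays below all vector arrays, and the joint arrays overlapped those of vector. The term was 2.53 ± 0.40 (adjusted p = 0.00421), while 2 further probe sets gave 0.80 (adjusted p = 0.549) and 0.48 (adjusted p = 0.836), which were not called. Rgs5 and Zap70 were the 2 positive calls that no left-out array removed.

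Lefty1, a secreted antagonist of Nodal, was the only called gene of 16 tested Nodal, activin and BMP genes, a list with 3 negative and 2 positive calls under the replicate block. Its signals were 3929, 4052 and 4798 with vector, 7636, 5979 and 7524 with Foxd3, 2139, 2288 and 2475 with CA-NFATc3 and 6171, 5588 and 6842 with both plasmids. It rose with Foxd3 and fell with CA-NFATc3, and the joint arrays lay above all vector arrays and overlapped those of Foxd3. The term was 0.70 ± 0.15 (adjusted p = 0.0355), and the call was lost without any 1 of 9 arrays, all but vector replicate 1, Foxd3 replicate 1 and both plasmids replicate 2 (highest adjusted p = 0.117). Nodal itself had means of 2658, 2606, 2004 and 2618 and a term of 0.41 (adjusted p = 0.415). Inhbb, an activin subunit, had a term of 0.78 that was called with the block only (adjusted p = 0.0595, block 0.00169). A further Inhbb probe set gave 0.12 (adjusted p = 0.977, limma without the block). The 3 negative genes called with the block only were the ligand Bmp4 (-0.48, adjusted p = 0.281, block 0.0365), the BMP target Id1 (-0.68, 0.618, block 0.0187) and the inhibitory Smad6 (-0.94, 0.0732, block 0.0333).

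The other 6 positive genes had smaller or less stable terms. AW551984 had means of 136, 123, 90.8 and 236 in the order vector, Foxd3, CA-NFATc3, both plasmids and a term of 1.28 (adjusted p = 0.0197), lost without vector replicate 3, Foxd3 replicate 3 or both plasmids replicate 2 or 3 (highest 0.0734). Adgre5, an adhesion receptor, and Grasp, a scaffold protein, were lower in all 3 plasmid groups than with vector, at 1188, 781, 733 and 771 and at 2697, 2070, 1821 and 1999. Their terms were 0.65 (adjusted p = 0.0238) and 0.51 (adjusted p = 0.0195). Rnf213, a large ubiquitin ligase, was lower with CA-NFATc3 alone, at 1096, 1068, 727 and 1071 (term 0.57, adjusted p = 0.0313). Galnt2, which starts mucin-type glycosylation, had 893, 807, 697 and 926 (term 0.54, adjusted p = 0.0368), and Dennd2c, an activator of Rab proteins, 2044, 1501, 1702 and 1809 (term 0.52, adjusted p = 0.0206). The calls of Adgre5, Dennd2c and Rnf213 were lost without vector replicate 2 or 3, Foxd3 replicate 3, CA-NFATc3 replicate 3 or both plasmids replicate 2 or 3. Those of Dennd2c and Rnf213 were also lost without Foxd3 replicate 1, and that of Adgre5 without Foxd3 replicate 2 or CA-NFATc3 replicate 2. The call of Grasp was lost without replicate 2 or 3 of vector, of Foxd3 or of both plasmids, and that of Galnt2 without any array but CA-NFATc3 replicate 1. The highest adjusted p were 0.0892 for Adgre5, 0.0749 for Dennd2c, 0.111 for Rnf213, 0.0778 for Grasp and 0.112 for Galnt2.

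The pluripotency network gave no called term. Of 13 tested core pluripotency genes and 21 tested genes of the naive state 0 were called (limma), with 1 and 4 positive and 0 negative at an unadjusted p under 0.05, and with the block 1 and 3 were called positive. The core gene was Dppa2 (0.31, adjusted p = 0.207, block 0.0448). Pou5f1, Nanog and Sox2, the central factors of the network, had terms of 0.07, 0.02 and 0.11 with standard errors of 0.11, 0.13 and 0.09. The 3 naive genes called with the block were Prdm14, Nr0b1 and Tet2, with terms of 0.40, 0.39 and 0.48 (adjusted p = 0.14, 0.0732 and 0.0924 without it). Of 18 tested genes of the primed epiblast and neural lineage 0 were called, 2 at an unadjusted p under 0.05, and 2 with the block. Those 2 were Pou3f1, a POU factor, and Dnmt3b, a DNA methyltransferase, with terms of -1.19 and -0.87. Pou3f1 means were 133, 353, 337 and 357 in the order vector, Foxd3, CA-NFATc3, both plasmids. Cdx2 and Fgf5 were below the level needed for a test.

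Of the 26 gene lists, 14 had at least 1 called gene, and in 12 of these all calls were negative. The lists of cell cycle (22 tested, median term 0.00), p53 (15), stress responses (16), interferon response (10), Wnt targets (9), cholesterol synthesis (13, median -0.19), genes of the germline and 2-cell stage (9), epithelial-mesenchymal transition and neural crest (6), and blood and endothelial markers (5) had 0 called genes. At an unadjusted p under 0.05 these held 0, 6, 2, 1, 1, 3, 1, 2 and 0 genes, and with the block 0 in all but Wnt targets and cholesterol synthesis, with 1 each (Tcf7l2 and Sqle, both negative).

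**Figure D5:**
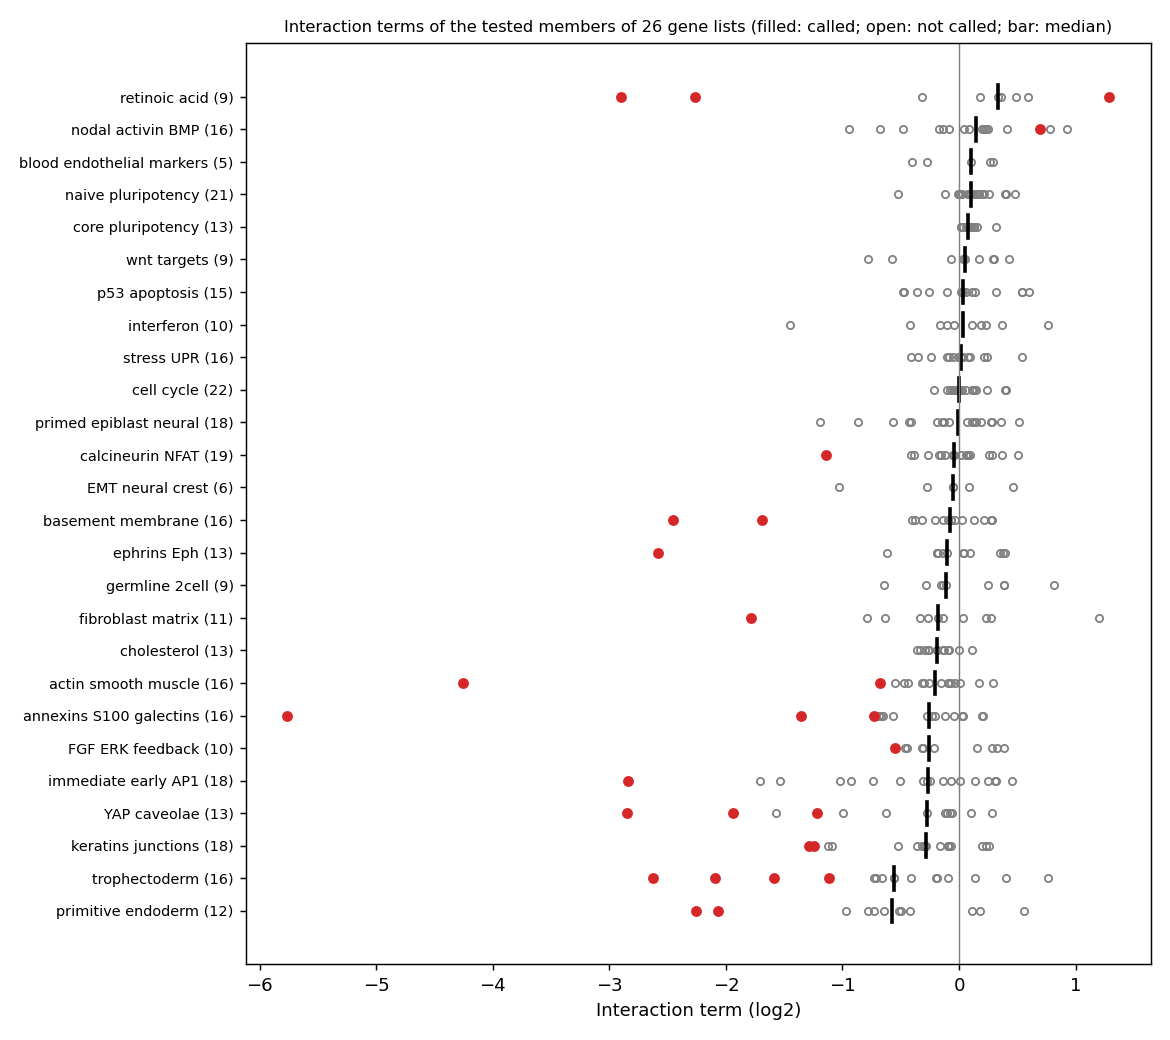
Interaction term (log2, horizontal) of every tested member of the 26 gene lists, ordered by the list's median (black bar), with the number of tested members in brackets; filled points were called and open points were not. Medians run from -0.58 (primitive endoderm) to 0.33 (retinoic acid), against 0.01 for all 11609 genes. A negative median is partly built in where members were tested only through their CA-NFATc3 arrays.

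Further probe sets of the same genes were tested in the same arrays. Of the 94 called genes 37 had 64 others tested, 62 of them with the sign of the called one and 17 called. The 2 of opposite sign were those of Ddah1 (0.50) and Nexmif (0.37), neither called.

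The knockout arrays gave values that the term did not use. Foxd3 signals there were 249, 204 and 205 with DMSO and 65.1, 9.55 and 19.7 with tamoxifen, a difference of -2.08 (adjusted p = 0.000146), in the direction of the label. Of the 84 negative genes 77 were tested in these cells, and 34 were called higher (44.2%) and 7 lower (9.09%) with tamoxifen. Of the 11223 genes tested in both sets of arrays, 15.6% were called higher and 18% lower. Of the 10 positive genes 4 were higher and 2 lower.

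Some genes described above were among the 34. Those given here are examples picked from the genes that were higher, with terms from -1.14 (Rcan1) to -4.26 (Gsn). They do not stand for all genes with large negative terms. Cav1 signals were 696, 722 and 882 with DMSO and 2800, 3352 and 3160 with tamoxifen, a difference of 1.98 (adjusted p = 4.59e-08). Ptgs2 had 1044, 779 and 1057 against 4390, 4363 and 4186, a difference of 2.14 (adjusted p = 3.65e-08). Neither gene's groups overlapped. S100a6 (1.20), Srgn (1.65), Rcan1 (0.51), Gsn (0.54) and Col4a1 (0.36) were also higher, with the weakest at an adjusted p of 0.0435 (Gsn). Cldn7 and Ocln were lower, by -0.66 and -0.60. Among the positive genes Rnf213 was higher (1.33), Lefty1 higher (0.60) and Stra8 lower (-0.81). The DMSO arrays had mean Cav1 and Ptgs2 signals of 767 and 960, against 29.0 and 35.1 in the vector arrays, and this difference between the 2 sets of arrays was not tested.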

How the data were processed

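Total RNA was labelled with biotin and hybridised to Affymetrix mouse arrays, 1 sample each. The deposited values are the intensity of each probe set, the MAS5 signal per the submitters' processing notes, on a linear scale; the deposited values of each array had a mean of 500 after trimming 2% from each end, and detection calls were not used here. How background was corrected is unknown. Of 45101 probe sets, 34945 had 1 gene symbol in the platform annotation, 932 several, 9160 none and 64 were controls. For each of 18193 genes the brightest probe set over the 18 arrays was used. Signals plus 32 were put on the log2 scale, and genes reaching 65.8 in at least 3 of the 12 arrays were tested.

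Group means were fitted with limma 3.58.1 (R 4.3.3; lmFit, then eBayes with a trend in the variance), two-sided, and the 6 knockout arrays separately. The p-values measure the spread between biological replicates as labelled. Replicate numbers pair the arrays by the data: 18 same-number pairs had residual correlations of 0.104 to 0.315 and 36 other pairs -0.282 to 0.0133, so blocked values stand beside the genes and lists whose calls they change. Named genes were the 14 most negative and 10 most positive called terms, up to 3 called members of each list, and 13 genes of prior interest. Members, lists and rule were chosen with earlier results of these data known, so no list is independent support. Fold values are ratios of geometric mean signals; where a group was dim, its arrays were raised to 65.8, and the fold is given as at least that size. The fit was tested on simulated data with independent noise and no pairing by replicate number. Of 100 genes given a log2 term of size 1, 70% were called with the right sign, and of 100 given size 2, 97%. Terms near 1 can thus be missed. Of the genes called there 2.91% had been left unchanged. Motifs were searched in 250 bases of RefSeq promoters (GRCm38.p6). Some genes are not analysed here. Python 3.11.15 and matplotlib 3.10.9 drew the figures.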

Additional observations from a re-analysis of the deposited data

Results flagged for a closer look

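The effect of Foxd3 differed with and without CA-NFATc3 for 94 genes by the test of the difference itself (limma interaction term), 84 of them with a negative and 10 with a positive term.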

How the results depend on the processing

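None of the 94 called genes changed sign under any of the 25 alternatives, and 30 kept the call under all of them. The count of 94 (84 negative, 10 positive) was 245 (184, 61) with the replicate block, 161 (139, 22) with all 18 arrays in 1 fit and 172 (138, 34) with array weights. It was 56 to 120 (51 to 104, 2 to 16) without 1 array. Low signals set to the testing level gave 17 positive genes. Without 1 array the positive count was 6 without vector replicate 2, 2 without vector replicate 3, 3 without Foxd3 replicate 3, 16 without CA-NFATc3 replicate 1, 5 without CA-NFATc3 replicate 3, 4 without both plasmids replicate 2 and 2 without both plasmids replicate 3. With the replicate block the average effects had 1782 (Foxd3) and 1066 (CA-NFATc3) called genes. In alternatives chosen after seeing the data, the block gave 783 for Foxd3 against vector, 1258 for both plasmids against CA-NFATc3, 1104 for CA-NFATc3 against vector and 96 for both plasmids against Foxd3. The ranges without 1 array were 158 to 356, 416 to 731, 388 to 676 and 22 to 44. The cause of these shifts was not tested. The other settings gave 74 (no offset) to 122 genes (low signals set to the testing level). A linear scale called 98 genes, 75 of them among the 94, and the mean of all probe sets 85, 65 of them among the 94. On the linear scale Lgals7, Ptgs2, Cited1, Efnb2, Ccn1, Lgals1, Tpm4, Rnf213, Stra8, Adgrl2 and Lefty1 lost the call, and without the offset Cyp26a1, Cited1, Mgp, Srgn, Elf5, Cd44, Cryab, Twist1, Lgals1 and Dusp6. With the mean of all probe sets the named genes Cavin1, Tac1, Ccn1, Elf5, Lrp2, Fgfr2, Lgals1, Dusp6, Gja1, Adgrl2, Ddah1, Nexmif, Grasp, Rnf213, Galnt2 and AW551984 lost it. Values of the named genes stayed on their side of the threshold in 1112 results and lost the call in 136. The block changed no call of a gene named by the rule. In 19 negative genes the means of vector, Foxd3 and both plasmids all lay under the testing level, where signals have no reliable order.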
